A study of Arabidopsis thaliana with 11 samples.

Results

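The cyclins, the cyclin-dependent kinases (CDKs) that they activate and the proteins that restrain or direct these kinases were examined as a group of 50 genes among the 28495 genes of the data. The 50 genes were taken by locus identifier from family membership, a rule that uses no measured value, but the group was picked for description with earlier results of these data known. They comprised 9 B-type, 10 A-type and 9 D-type cyclins, 5 kinases of the CDKA and CDKB families and 9 CDK inhibitors (KRP1 to KRP7, SIM and SMR1). The remaining 8 genes were the kinase gene WEE1, 4 genes of the E2F and retinoblastoma pathway (E2FA, E2FB, DEL1 and RBR1) and 3 CCS52 genes. The classes are not complete families: the D-type cyclin gene CYCD6;1, the inhibitor genes SMR2 to SMR8, and E2FC, DEL2 and DEL3 are among further genes read below. Expression was measured by RNA sequencing in root tips of Arabidopsis thaliana, in wild-type Col-0 (3 libraries) and in the mutants cle40-2 (3), clv2-gabi (3) and crn-3 (2). All 11 libraries are labelled as Col-0 background, and all plants grew vertically at 21 °C in constant light on agar with 10 g/l sucrose. Each mutant was set against the same Col-0 libraries in a table of its own, and the title of the series asks how CLE40 signalling on the one side and CRN with CLV2 on the other act on root meristem growth. The labels do not state the kind of lesion behind each allele, the age of the plants or the length of root taken.

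Progress through the cell cycle depends on CDKs, which are active only when bound to a cyclin. In plants, D-type cyclins act mainly at the entry into the cycle, A-type cyclins in S phase and G2, and B-type cyclins at mitosis. KRP and SIAMESE-related proteins bind and inhibit cyclin-CDK complexes, RBR1 restrains E2F transcription factors until it is phosphorylated, and CCS52 proteins direct the anaphase-promoting complex (APC/C) to degrade mitotic cyclins. In the root tip, dividing cells of the meristem stop dividing as they leave it and commonly enter endoreduplication, in which DNA is replicated without mitosis.

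The mutated genes were inspected first. CLV2, a receptor-like protein gene, was at 198 in Col-0 and 4248 in clv2-gabi in the authors' deposited table (21.44-fold with adjusted p rounding to 0). CRN, which encodes a kinase-like membrane protein, had means of 91 in Col-0 and 111 in crn-3 in the authors' deposited table (adjusted p = 1). CLE40, a secreted peptide gene, had means of 1 and 3 in the cle40-2 table of the authors' deposited tables, too low to check that label. None of these transcripts had a lower mean in its own mutant, and the groups are called here by their labels alone. Markers of the root meristem (5 genes) were present in every group, and 0 of 5 had an adjusted p under 0.05 in any mutant. Their summed means were 4512 in Col-0 and 4936 in crn-3, 4866 and 5194 in the clv2-gabi table, and 4888 and 5190 in the cle40-2 table. All 5 means were above Col-0 in crn-3 and in clv2-gabi, and 4 of 5 were in cle40-2. Among markers of other cells, some passed that threshold. Of all genes tested, 0.439% were called (adjusted p under 0.05) in crn-3, 1.89% in clv2-gabi and 5.15% in cle40-2. In cle40-2, 4 of 5 markers of the differentiated endodermis were called higher (summed means 163 in Col-0 and 467 in cle40-2), as were all 5 green tissue markers (3 and 449), 3 of which were listed at 0 in Col-0, 2 of 3 seed markers (1 and 452) and 2 of 5 root hair markers (2778 and 3196). In clv2-gabi, 4 of 5 root hair markers were called lower (summed means 2763 and 1797), and in crn-3 1 of 5 was (2563 and 1920). Summed over the 5 endodermis markers, the means were 151 in Col-0 against 106 in crn-3, and 162 against 106 in the clv2-gabi table, with 0 of 5 called. A root cap marker, 1 of 5, was called higher in crn-3 and in clv2-gabi (sums of 2215 and 2956, and of 2389 and 3146), and 1 of 3 seed markers was called higher in crn-3 (1 and 15). The part of these differences in the results below was not tested. Libraries were made from whole root tips, so that fewer cells of a type and less RNA per cell cannot be told apart.

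In Col-0, 48 of the 50 genes had a mean above 0, and CYCA3;3 and CYCD7;1 were listed at 0 in all 4 groups. Levels were compared between genes per length: the normalised read count was divided by the summed length of the gene's exons and scaled so that all genes of the table sum to 1000000 (written ppm). On this scale the median of the 50 genes was 18.6 ppm, against 3.84 ppm over 28000 genes with an exon length. Both sets include genes listed at 0: 2 of the 50, while 21628 of all 28495 genes were above 0 in Col-0 or crn-3. The inhibitors SIM and SMR1 led the list, at 64.8 ppm each, level with CDKB1;1 (64.6 ppm), a kinase specific to plants that acts around mitosis. CDKA;1, the kinase most like yeast Cdc2 and Cdc28, stood at 62.9 ppm. Without values per library, neighbours in this order cannot be said to differ. Among the cyclins, CYCD3;2 (57.4 ppm), CYCD2;1 (56.4 ppm), CYCA3;2 (55.5 ppm) and CYCB1;2 (53.9 ppm) were highest. Each class spanned a wide range: the B-type cyclins ran from 9.87 to 53.9 ppm, the A-type from 0 to 55.5 ppm, and the D-type from 0 to 57.4 ppm. All 7 KRP genes lay at or below 12.5 ppm, the level of KRP3, and KRP1 was at 0.201 ppm. RBR1 had 26.0 ppm, the E2F activator genes E2FA and E2FB 18.8 and 6.86 ppm, and the atypical E2F gene DEL1 18.4 ppm. CCS52B and CCS52A1 were close, at 32.5 and 31.0 ppm, with CCS52A2 at 4.80 ppm, and WEE1, whose kinase inhibits CDKs, was at 11.2 ppm.

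**Figure D1:**
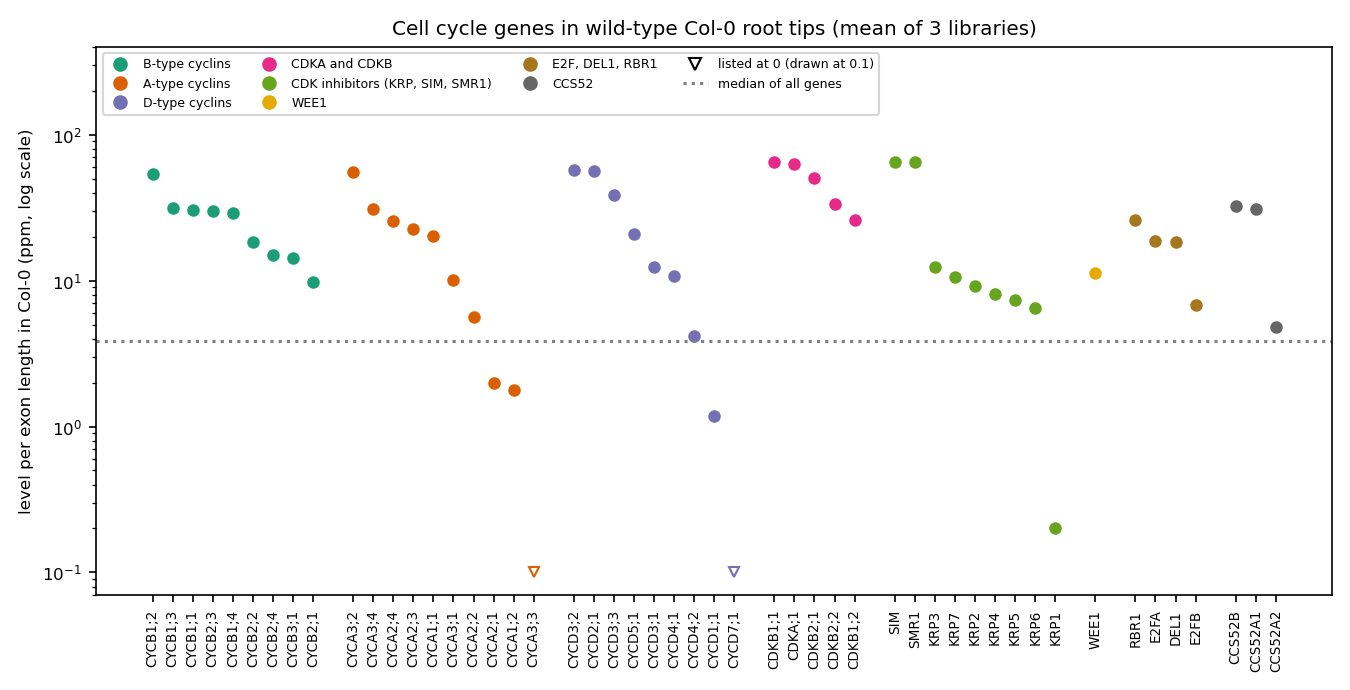
Level of each of the 50 cell cycle genes in Col-0 root tips, as normalised read count per exon length in ppm on a log scale, grouped by class and ordered within it; each point is the authors' mean of 3 libraries, and triangles mark the 2 genes listed at 0. SIM and SMR1 (64.8 ppm each) stand with the kinases, all 7 KRP genes lie at or below 12.5 ppm, and the dotted line is the median of all genes (3.84 ppm).

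The sequence counted was specific to the gene for most of the group. In 48 of the 50 genes every 50-base window of the exons occurred once in the TAIR10.1 genome, and the exceptions were CYCB1;2 (88.7% of windows) and CYCB2;3 (83.0%), whose counts may include reads from a copy. In 17 genes the annotated span overlaps another gene, in 15 of them on the opposite strand. SIM, SMR1, KRP4, RBR1, E2FA and CCS52B are among those 15, and nothing in the labels states how strand was treated, so reads of their antisense partners cannot be told apart from their own.

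No gene of the group was called in any mutant. A call here is an adjusted p under 0.05 in the authors' deposited table. In crn-3, 0 of 48 genes with an adjusted p were called, against 0.439% of all 22793 genes tested, and all 48 stood at an adjusted p of 1. In clv2-gabi, 0 of 48 were called, against 1.89% of 22987 genes, and the smallest adjusted p was 0.415. In cle40-2, 0 of 49 were called, against 5.15% of 23602 genes, and the smallest adjusted p was 0.125. Unadjusted p-values are not in the tables, so a count at an unadjusted threshold was not made. A count of 0 among 48 or 49 genes is near these background shares and is no result about the group. Nothing in the labels says that the libraries of a group are separate cultures, so the p-values reflect a spread between libraries that may be technical.

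The smallest changes that were called give a rough guide to what could be seen. Among genes with means between 500 and 1000, where 17 of the 50 genes lay, the smallest rise called was 1.73-fold in crn-3, 1.43-fold in clv2-gabi and 1.39-fold in cle40-2 in the authors' deposited tables. The smallest called falls in that range were to 0.60, 0.71 and 0.71 of Col-0 in the authors' deposited tables. The cell cycle genes with such means spanned 0.77 to 1.19 in cle40-2, 0.85 to 1.17 in clv2-gabi and 0.82 to 1.16 in crn-3 in the authors' deposited tables. In this range of means no gene with so small a change was called, and the data do not show that the genes were unchanged.

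The group means nevertheless leaned to one side in crn-3 and clv2-gabi. In crn-3, 34 of the 48 genes above 0 had a higher mean than in Col-0 (70.8%), and the median of the 48 was 1.04-fold. Of these, 47 had a mean of at least 50 over both groups and 33 of them were higher (70.2%), against 50.5% of all genes at that level. In clv2-gabi, 33 of 48 were higher (68.8%), with a median of 1.06-fold, and at a mean of at least 50 it was 32 of 47 (68.1%), against 53.1% of all genes. In cle40-2, 23 were higher, 24 lower and 1 equal (47.9% higher), with a median of 0.993-fold, and at a mean of at least 50 it was 22 of 47 (46.8%), against 48.7% of all genes. The median over all genes above 0 was between 1.00- and 1.01-fold in the 3 mutants. At a mean of at least 50 it was 1.00-fold in crn-3, 1.01-fold in clv2-gabi and 0.997-fold in cle40-2. When the group means were rescaled to equal sums over all genes, 37 genes were higher in clv2-gabi (77.1%) and 27 in cle40-2 (56.2%), with 34 in crn-3. That rescaling raised all genes of a mutant alike, by a log2 of 0.014 in crn-3, 0.039 in clv2-gabi and 0.037 in cle40-2. After centring on the median of all genes, 32 of 48 were higher in crn-3, 32 in clv2-gabi and 24 in cle40-2. The shares of all genes given above are those before rescaling, so the rescaled counts cannot be set against them. These are descriptions of group means, with no test. The 3 comparisons share the Col-0 libraries, so a chance deviation of Col-0 moves all 3 the same way.

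**Figure D2:**
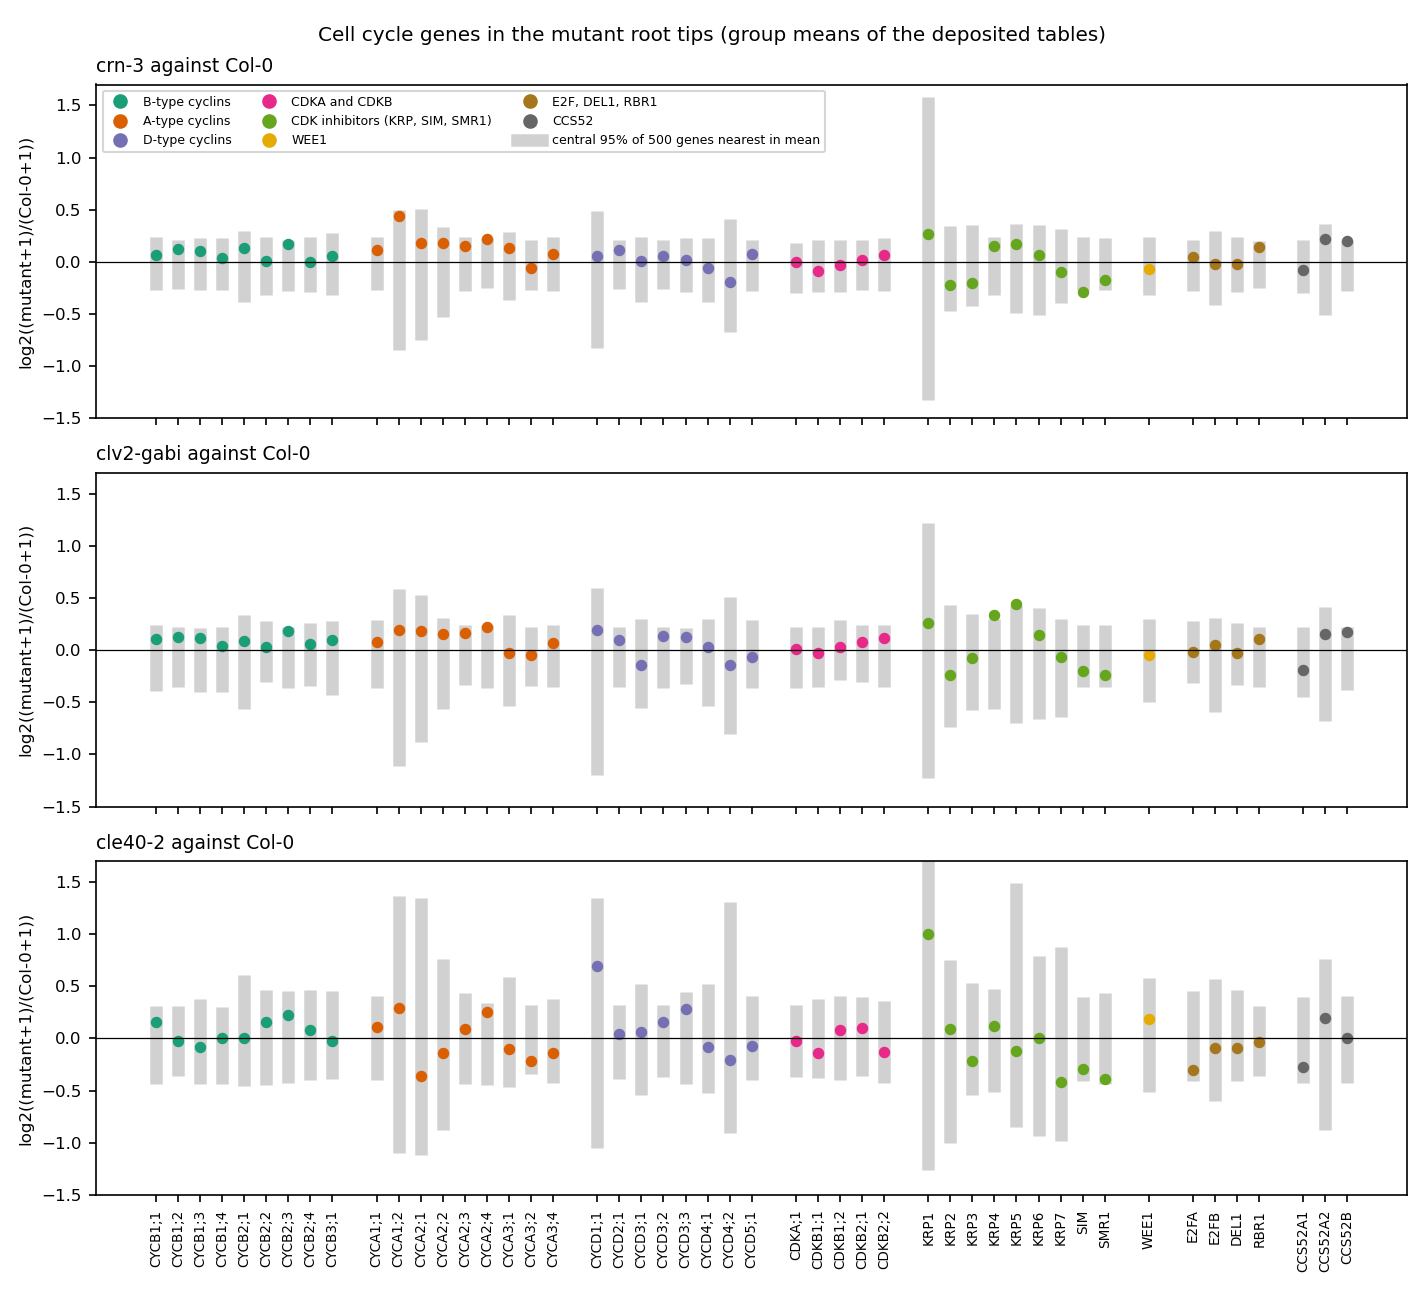
Change of each of the 48 detected cell cycle genes in crn-3, clv2-gabi and cle40-2, as log2((mutant mean + 1)/(Col-0 mean + 1)), with the class in colour; grey bars are the central 95% of the 500 genes nearest in mean, and the bar of KRP1 in cle40-2 runs past the top of the axis. Of the 48 points, 2 lie outside the grey bars in crn-3 (SIM below and CCS52B above), 2 in clv2-gabi (KRP4 and KRP5, both above) and 0 in cle40-2.

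Genes of similar abundance give a yardstick for single genes. The central 95% of the fold changes of the 500 genes nearest in mean left out 2 of the 48 genes in crn-3, against 4.7% of all genes, 2 of 48 in clv2-gabi, against 4.68%, and 0 of 48 in cle40-2, against 4.54%. These shares are at or below the background. The band holds real changes as well as error.

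The B-type cyclins, which drive mitosis, had slightly higher means in crn-3 and clv2-gabi, none of them called. In crn-3 all 9 were above Col-0 (8 after centring on the median of all genes, when CYCB2;4 was below), between 1.00- and 1.12-fold in the authors' deposited table, and their summed means were 7198 in Col-0 and 7645 in crn-3 (1.06-fold). In clv2-gabi all 9 were above Col-0 under each scaling, between 1.02- and 1.14-fold in the authors' deposited table, with sums of 7763 and 8342 (1.07-fold). In cle40-2, 6 of 9 were above Col-0 (8 with group means scaled to equal sums and 6 after centring). The 9 lay between 0.95- and 1.17-fold in the authors' deposited table, with sums of 7801 and 8099 (1.04-fold). CYCB1;1 (AT4G37490), the cyclin whose promoter is used as a reporter of cells in G2 and mitosis, had means of 846 in Col-0 and 885 in crn-3, 912 and 980 in the clv2-gabi table, and 917 and 1020 in the cle40-2 table of the authors' deposited tables. Its folds were 1.05, 1.08 and 1.11 in the authors' deposited tables, with adjusted p of 1, 1 and 0.927. The highest of the class by level, CYCB1;2, stood at 1.09, 1.09 and 0.98 of Col-0 in the authors' deposited tables. The widest margin in each mutant belonged to CYCB2;3 (AT1G20610), with 1.12-, 1.14- and 1.17-fold in the authors' deposited tables (adjusted p 1, 1 and 0.691). In cle40-2 the 4 CYCB2 genes together summed to 1.11-fold and the 4 CYCB1 genes to 1.00-fold.

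B-type cyclins are known targets of MYB3R transcription factors, which bind the mitosis-specific activator (MSA) element. The 500 bases before the annotated start of each gene in TAIR10.1 (RefSeq) were searched on both strands for its core, CAACGG. A match was found for 6 of the 9 B-type cyclins (66.7%) and for 9.48% of 28007 genes. From each of these promoters 1 site is shown, on the strand of the gene where there is such a site, because the element is what these cyclins share beyond family membership. Each is written 5′ to 3′ on the strand of its gene, with the core in capitals, or its complement CCGTTG where the core lies on the other strand.
CYCB1;1, chr4:17624459-17624488, minus strand: agaataagtgggCCGTTGtgacttcaaaat
CYCB1;2, chr5:1861830-1861859, minus strand: ttatttacagtcCAACGGcctcattcgatg
CYCB1;3, chr3:3627296-3627325, minus strand: aagttcatcatcCAACGGctagaagtctaa
CYCB2;1, chr2:7663957-7663986, plus strand: tccctcatgatcCAACGGttatattctaaa
CYCB2;2, chr4:16901459-16901488, plus strand: tccttcatgatcCAACGGtcatcttaatca
CYCB2;3, chr1:7137878-7137907, minus strand: gtggcgttgatcCAACGGctgagatgaact
The last 4 of these sites share the longer word ATCCAACGG, which was noticed in them and then searched for on both strands. It lies upstream of 4 of 9 B-type cyclins, a count set by that choice of word, and of no other gene of the 50. It is also upstream of SCL28, 1 of the 15 mitosis and cytokinesis genes read below, and of 0.889% of all genes. A match is a description of sequence and not evidence of binding.

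Possession of the MSA core went with little difference in the means. The 9 detected cell cycle genes with a match (6 B-type cyclins, CYCA3;4, CDKB2;2 and KRP3) had a median of 1.05-fold in crn-3, and the 39 without had 1.03-fold. In clv2-gabi the medians were 1.07- and 1.04-fold, and in cle40-2 they were 0.981- and 1.00-fold. Over all genes with a mean of at least 50, the medians with and without the core lay between 0.996- and 1.01-fold in the 3 mutants.

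The A-type cyclins are described by subfamily, and none was called. The 4 CYCA2 genes, which act in G2 and in the brake on endoreduplication, were all above Col-0 in crn-3 and in clv2-gabi and summed to 1.14-fold in both. In cle40-2, 2 were above and 2 below, with a sum of 1.1-fold. CYCA2;4 (AT1G80370) carried most of that: its means were 795 and 924 in crn-3, 857 and 1001 in clv2-gabi, and 861 and 1028 in cle40-2 in the authors' deposited tables (1.16-, 1.17- and 1.19-fold with adjusted p 1, 1 and 0.557). The rarer CYCA2;1 had means of 72 in Col-0 and 56 in cle40-2 in the authors' deposited table (0.78-fold with adjusted p = 0.798). The 3 detected CYCA3 genes, a subfamily expressed around S phase, summed to 0.998-fold in crn-3, 0.992-fold in clv2-gabi and 0.881-fold in cle40-2, where all 3 were below Col-0. The most abundant of them, CYCA3;2, had means of 1829 and 1572 there in the authors' deposited table (0.86-fold with adjusted p = 0.679). CYCA1;2, a gene best known from meiosis, was low in Col-0 (52 to 56) and had 1.38-, 1.16- and 1.24-fold means in the authors' deposited tables, none of them called.

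Of the D-type cyclins, which couple growth signals to division, CYCD1;1 (AT1G70210) came nearest to a call of all 50 genes. Its means were 54 in Col-0 and 88 in cle40-2 in the authors' deposited table (1.63-fold with adjusted p = 0.125), against 50 and 52 in crn-3 and 54 and 62 in clv2-gabi. It is a rare transcript in root tips, at 1.18 ppm in Col-0, and lies on chromosome 1 at 26439556 to 26443007, overlapping a gene on the opposite strand. The 3 CYCD3 genes, which hold cells in division and delay their differentiation, summed to 1.03-fold in crn-3, 1.07-fold in clv2-gabi and 1.14-fold in cle40-2. All 3 means were above Col-0 in crn-3 and cle40-2, but in clv2-gabi 2 were above and CYCD3;1 (AT4G34160) was below, at 427 in Col-0 and 386 in the mutant in the authors' deposited table (0.90-fold with adjusted p = 1). CYCD3;3 (AT3G50070) had the widest margin of them, with means of 1011 and 1228 in cle40-2 in the authors' deposited table (1.21-fold with adjusted p = 0.48). CYCD2;1, abundant in root tips, was at 1.08-, 1.07- and 1.03-fold in the authors' deposited tables. CYCD4;2 was below Col-0 in each mutant, at 0.88, 0.90 and 0.87 of it in the authors' deposited tables, again with no call.

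The means of the kinases were close to those of Col-0. The 5 CDK genes together stood at 0.992 of Col-0 in crn-3, 1.02 in clv2-gabi and 0.981 in cle40-2. CDKA;1 (AT3G48750) had means of 1595 in Col-0 and 1598 in crn-3, 1720 and 1728 in the clv2-gabi table, and 1729 and 1704 in the cle40-2 table of the authors' deposited tables. The 4 CDKB genes, which are expressed from S phase to mitosis, spanned 0.94 to 1.05 of Col-0 in crn-3, 0.98 to 1.08 in clv2-gabi and 0.91 to 1.07 in cle40-2 in the authors' deposited tables.

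Among the CDK inhibitors, SIM and SMR1 (AT3G10525, also known as LGO), members of the SIAMESE-related family that promote endoreduplication, were below Col-0 in all 3 mutants under each scaling. SIM (AT5G04470) had means of 868 in Col-0 and 708 in crn-3, 936 and 815 in the clv2-gabi table, and 942 and 769 in the cle40-2 table of the authors' deposited tables. Its folds were 0.82, 0.87 and 0.82 in the authors' deposited tables, with adjusted p of 1, 1 and 0.492. SMR1 had means of 905 and 802, 976 and 830, and 982 and 751 in the same order in the authors' deposited tables. Its folds were 0.89, 0.85 and 0.77 in the authors' deposited tables, with adjusted p of 1, 1 and 0.148. The summed means of the pair were 0.852, 0.860 and 0.790 of Col-0, while those of the 7 KRP genes were 0.992, 1.08 and 0.956. None of these differences was called, and the 3 values for each gene rest on the same Col-0 libraries.

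The KRP genes, relatives of the animal inhibitor p27, lay on both sides of Col-0. In clv2-gabi, the KRP5 (AT3G24810) means were 132 (Col-0) and 180 (clv2-gabi) in the authors' deposited table (1.36-fold with adjusted p = 0.415), and KRP4 (AT2G32710) had 355 and 449 (1.26-fold with adjusted p = 0.643). Both lay above the central 95% of genes of like abundance. In crn-3 their folds were 1.13 and 1.11, and in cle40-2 0.92 and 1.09, in the authors' deposited tables. KRP2 (AT3G50630), which is repressed by auxin in roots, stood at 0.86 in crn-3, 0.85 in clv2-gabi and 1.06 in cle40-2 in the authors' deposited tables. KRP7 (AT1G49620) had means of 234 in Col-0 and 175 in cle40-2 in the authors' deposited table (0.75-fold with adjusted p = 0.324), and 0.93- and 0.95-fold in crn-3 and clv2-gabi. KRP3 was below Col-0 in each mutant (0.87, 0.95 and 0.86 in the authors' deposited tables) and KRP6 between 1.00- and 1.11-fold. KRP1 was listed at 4 in Col-0 and at 5, 5 and 9 in the mutants in the authors' deposited tables, too few to compare.

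WEE1 (AT1G02970), a checkpoint kinase that delays the cycle when DNA is damaged, had means of 360 in Col-0 and 344 in crn-3, 388 and 375 in the clv2-gabi table, and 390 and 444 in the cle40-2 table of the authors' deposited tables. It was thus at 0.96, 0.97 and 1.14 of Col-0 in the authors' deposited tables, with adjusted p of 1, 1 and 0.848.

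The 4 genes of the E2F and retinoblastoma pathway summed to 1.06-fold in crn-3, 1.04-fold in clv2-gabi and 0.930-fold in cle40-2, where 0 of 4 were above Col-0 under each scaling. In clv2-gabi, 2 of 4 were above Col-0, 4 of 4 with group means scaled to equal sums and 2 of 4 after centring on the median of all genes. E2FA (AT2G36010), an activator of S phase genes, had means of 727 and 591 in cle40-2 in the authors' deposited table (0.81-fold with adjusted p = 0.501), and its folds were 1.03 in crn-3 and 0.99 in clv2-gabi. RBR1 stood at 1.1, 1.08 and 0.97 of Col-0 in the authors' deposited tables. E2F sites (TTTCCCGC, TTTGGCGC, TTTCGCGC or TTTGCCGC, either strand) were found upstream of 3 of the 50 genes (6.0%) and of 2.36% of all genes. That of RBR1 is shown, since RBR1 both binds E2F and carries a site, with the motif in capitals.
RBR1, chr3:3919416-3919447, minus strand: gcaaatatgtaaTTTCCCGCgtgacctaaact

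The 3 CCS52 genes, activators of the APC/C, did not go together. CCS52A1 (AT4G22910), which acts at the exit of cells from the meristem into endoreduplication, stood at 0.95 in crn-3, 0.87 in clv2-gabi and 0.83 in cle40-2 in the authors' deposited tables (means 1214 and 1006 in cle40-2, adjusted p = 0.598). CCS52A2, which is known for its role in the stem cell niche of the root, was at 1.16, 1.12 and 1.15 in the authors' deposited tables, from means of 160 to 173 in Col-0. CCS52B (AT5G13840), which is expressed around mitosis, had means of 1059 and 1218 in crn-3 in the authors' deposited table (1.15-fold with adjusted p = 1), just above the central 95% of genes of like abundance, with 1.13-fold in clv2-gabi and 1.01-fold in cle40-2.

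A further 73 genes of the cell cycle, in 7 lists, were read beside the group. In crn-3 and in clv2-gabi 0 of 73 were called, with smallest adjusted p of 1 and 0.297. In cle40-2, 6 of 73 were called, 5 higher and 1 lower, against the background of 5.15%. None of the 17 genes of DNA replication and S phase and none of the 15 genes of mitosis and cytokinesis was among them. The mitosis list had 11, 13 and 5 of 15 means above Col-0 in crn-3, clv2-gabi and cle40-2, with median folds of 1.07, 1.07 and 0.968. At equal sums it had 11, 15 and 6 of 15 above, and after centring on the median of all genes 11, 13 and 5. The replication list had 10, 11 and 10 of 17 above Col-0, with median folds of 1.08, 1.03 and 1.01. At equal sums it had 10, 14 and 10 of 17 above, and after centring 10, 10 and 10. Before any rescaling, 50.5%, 53.1% and 48.7% of all genes with a mean of at least 50 were above Col-0. E2F sites lay upstream of 8 of the 17 replication genes (47.1%) and MSA cores upstream of 6 of the 15 mitosis genes (40.0%).

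The 2 largest called rises were those of other SIAMESE-related inhibitors. SMR5 (AT1G07500) had means of 2 in Col-0 and 21 in cle40-2 in the authors' deposited table (13.55-fold with adjusted p rounding to 0), and SMR7 (AT3G27630) had 4 and 34 (8.13-fold with adjusted p rounding to 0). Both rises nevertheless lay inside the central 95% of the 500 genes nearest in mean, which in cle40-2 reached 13.0-fold for SMR5 and 10.5-fold for SMR7 with 1 added to each mean. How many of such scarce transcripts rose as far was not counted. Both genes are known to be induced by DNA damage and oxidative stress through the transcription factor SOG1. In crn-3 and clv2-gabi SMR5 was at 1 to 2 and SMR7 at 2 to 4 in both the mutant and Col-0 in the authors' deposited tables. The other 5 SMR genes were not called, and SMR4 had means of 75 and 108 in cle40-2 in the authors' deposited table (1.43-fold with adjusted p = 0.371). SMR3 was at 0.72 of Col-0 in crn-3 and 0.74 in clv2-gabi (adjusted p 1 and 0.297) and at 1.03 in cle40-2 in the authors' deposited tables. Of the 4 genes listed for the DNA damage response, PARP2 (AT4G02390), a poly(ADP-ribose) polymerase gene, rose from 308 to 631 in cle40-2 in the authors' deposited table (2.05-fold with adjusted p rounding to 0). BRCA1 (AT4G21070), a gene of homologous recombination, rose from 477 to 769 in the authors' deposited table (1.61-fold with adjusted p = 0.001). SOG1 itself had means of 569 and 616 in the authors' deposited table (1.08-fold with adjusted p = 1). CYCB1;1 and WEE1, both known to respond to DNA damage in plants, stood at 1.11- and 1.14-fold in cle40-2 in the authors' deposited table, without a call.

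The palindrome bound by SOG1 (CTT and AAG with any 7 bases between them) was found in the 500 bases upstream of 3 of 7 other SMR genes (42.9%), of 9 of the 50 genes of the group (18.0%) and of 18.2% of all genes. The site farthest upstream of SMR5 and the site of SMR7 are given, since these are the cell cycle inhibitors that were called, followed by that of WEE1, which was not. The motif is in capitals.
SMR5, chr1:2305427-2305463, minus strand: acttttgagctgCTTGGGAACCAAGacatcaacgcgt
SMR7, chr3:10231586-10231622, minus strand: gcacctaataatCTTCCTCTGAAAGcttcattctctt
WEE1, chr1:672884-672920, plus strand: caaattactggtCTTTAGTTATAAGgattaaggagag
With a match in 18.2% of all genes, the motif alone does not set these genes apart.

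Of the APC/C and CDC20 list, 2 of 13 genes were called in cle40-2, in opposite directions. CDC27A (AT3G16320), a subunit gene of the APC/C, rose from 300 to 537 in the authors' deposited table (1.79-fold with adjusted p rounding to 0), and APC4 (AT4G21530), another subunit gene, fell from 763 to 522 (0.68-fold with adjusted p = 0.025). Of the 20 genes nearest to CDC27A on chromosome 3, 12 were also called higher, between 1.49- and 2.23-fold in the authors' deposited table, and 3 were called lower. Of the 20 neighbours of SMR5 (19 with an adjusted p) and of SMR7 (17), 2 each were called higher, against 5.15% of all genes called in either direction. Of those of PARP2 and of BRCA1, 0 were called higher and 1 each lower, and of those of APC4, 0 higher and 2 lower. CDC20.2, an activator of the APC/C in mitosis, had means of 2154 and 1598 in cle40-2 in the authors' deposited table (0.74-fold with adjusted p = 0.082), and its neighbour and near copy CDC20.1 had 2729 and 2185 (0.80-fold with adjusted p = 0.301). Only 63.7% and 66.8% of the 50-base windows of this pair are unique in the genome, so their counts are uncertain. CYCD6;1, a cyclin of the formative division of the ground tissue, had means of 39 and 69 in cle40-2 in the authors' deposited table (1.75-fold with adjusted p = 0.149). It stood at 1.08- and 1.06-fold in crn-3 and clv2-gabi in the authors' deposited tables. MYB3R3 and MYB3R5, repressors of mitotic genes outside their phase, had folds of 1.22 and 1.18 in crn-3, 1.22 and 1.23 in clv2-gabi, and 1.03 and 0.99 in cle40-2 in the authors' deposited tables, none called.

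**Figure D3:**
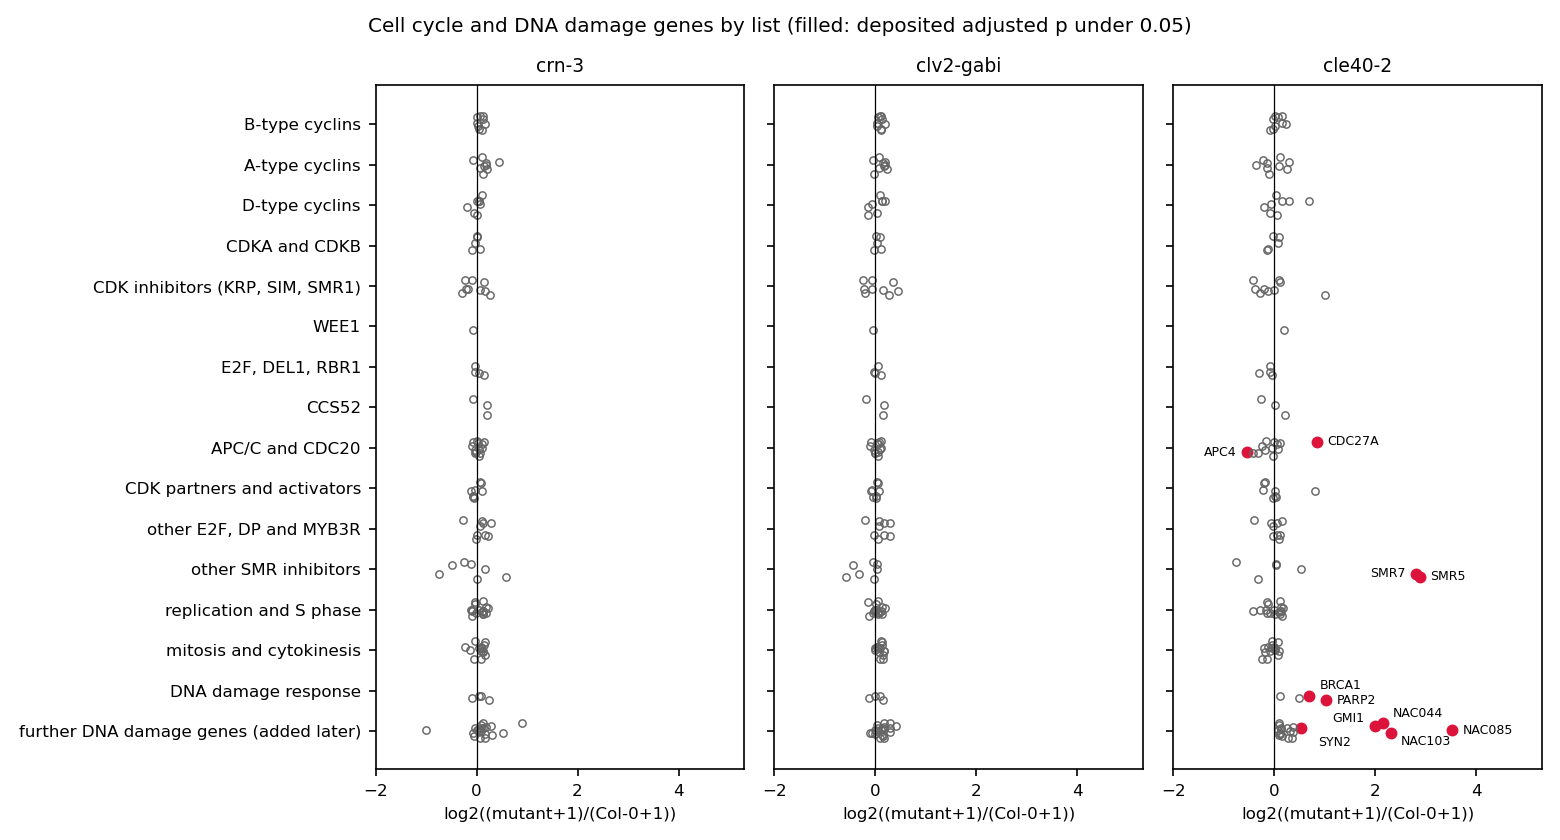
Change of each detected cyclin, CDK, inhibitor and other cell cycle gene by list in the 3 mutants, as log2((mutant mean + 1)/(Col-0 mean + 1)), with filled red points for an adjusted p under 0.05 in the authors' deposited tables; the lowest list was chosen after values had been seen. All filled points lie in cle40-2, where SMR5 and SMR7 stand farthest out among the inhibitors and 0 of the cyclins, CDKs, KRP genes, SIM and SMR1 is filled. The folds of SMR5 and SMR7 in the authors' deposited table, 13.55 and 8.13, are larger than on the plotted scale, which adds 1 to each mean.

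**Figure D4:**
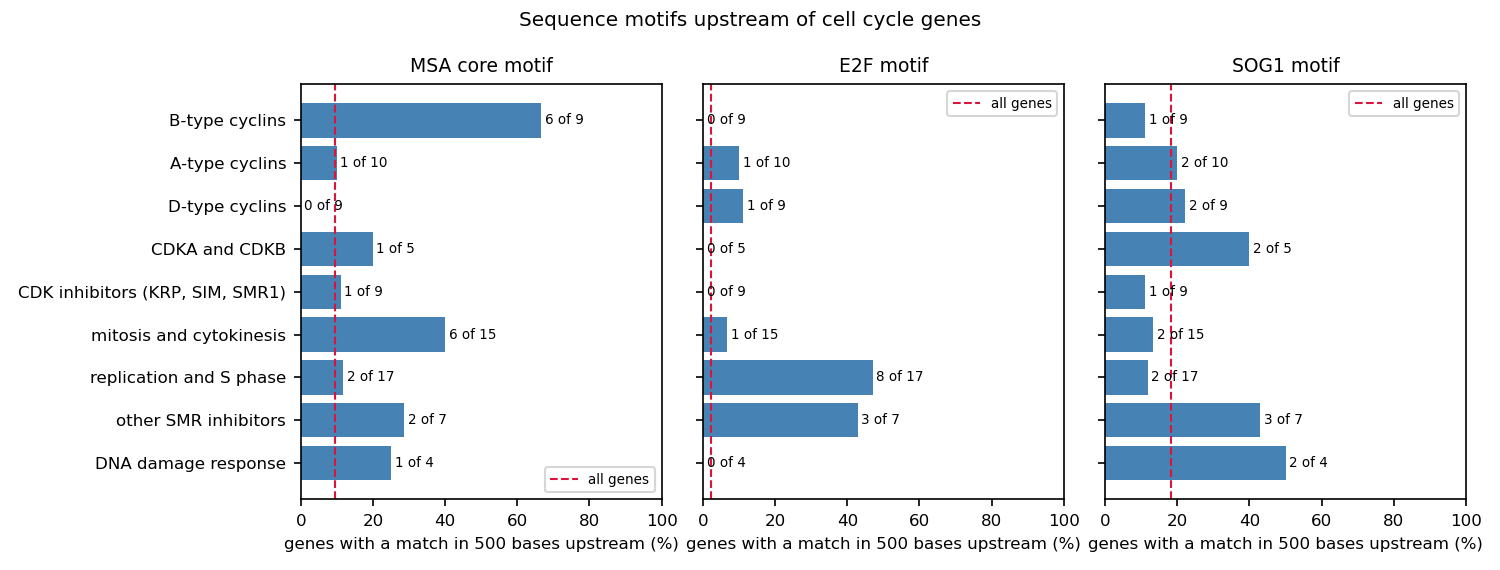
Percent of genes with the MSA core, an E2F site or the SOG1 palindrome in the 500 bases upstream of the annotated start, by list, with the number of genes beside each bar and the share of all genes as a dashed line (9.48%, 2.36% and 18.2%). The MSA core is found in 6 of 9 B-type cyclins and the E2F sites in 8 of 17 replication genes.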

How the data were processed

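Per the submitters' processing notes, the software named is CASAVA 1.8.2 and DESeq and the genome build is TAIR10. Read alignment, counting, strandedness, gene annotation and p adjustment: not given in the sources used here. Deposited by the authors were 3 tables, each with Col-0 and mutant group means of normalised read counts rounded to whole numbers (treated as a score, since no count model applies), their fold change (a ratio, to 2 decimals) and an adjusted p-value to 3 decimals. No value per library was used, so no SD, interval or depth per sample could be given. The Col-0 means of the clv2-gabi and cle40-2 tables are 1.08 times those of the crn-3 table, so mutants were compared with Col-0 within a table only.

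A call was an adjusted p under 0.05. Median changes used the log2 of (mutant mean + 1) over (Col-0 mean + 1), a scale on which changes of low genes come out too small. Per-length levels used exon lengths of RefSeq TAIR10.1, which holds 28008 of the 28495 identifiers and all 50 genes of the group. The 50 genes and the lists were chosen with earlier results of these data known. Any of the 50 could be named. Of the 73 further genes, those called were named, with up to 3 per list of the largest change at a mean of at least 50, as well as genes discussed beside them for their role. The result of 1 further gene is not reported here. The scripts (Python 3.11.15, pandas 2.3.3, numpy 2.4.6) were tested on simulated data. Other thresholds, pseudocounts, filters and scalings were tried.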

Additional observations from a re-analysis of the deposited data

How the results depend on the processing

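The 9 results (calls, median change and number of higher genes in each mutant) were recomputed under 42 alternatives. Calls among the 50 genes remained at 0 in all 3 mutants at an adjusted p under 0.1 and under 0.01, with a minimum mean of 50, and with a minimum log2 change of 1. The median log2 change ran from 0.053 to 0.07 in crn-3 and from 0.066 to 0.118 in clv2-gabi. In cle40-2 it ran from -0.021 to 0.027, changing sign when the group means were rescaled to equal sums. The all-gene shift used for centring was at most 0.013 (log2) in size. No paired analysis was possible because the tables hold group means only, and for the same reason no replicate could be left out, so the weight of any 1 library in a mean is unknown (crn-3 has 2). Depth per library is unknown.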

Other observations

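After the values of SMR5, SMR7, PARP2 and BRCA1 had been seen, 20 further genes of the DNA damage response were read, and no test was made of them as a list. In cle40-2, 5 of the 20 were called, all higher, against 5.15% of all genes tested in either direction. NAC085, a transcription factor gene, had means of 1 in Col-0 and 22 in cle40-2 in the authors' deposited table (28.33-fold with adjusted p rounding to 0), inside the central 95% of the 500 genes nearest in mean, which reached 16.9-fold with 1 added to each mean. The related genes NAC103 (67 and 335, 4.97-fold) and NAC044 (51 and 229, 4.52-fold) rose as well in the authors' deposited table, each with an adjusted p rounding to 0. NAC044 and NAC085 are relatives of SOG1 known to hold cells in G2 when DNA is damaged. GMI1, a gene of DNA repair, rose from 128 to 510 in the authors' deposited table (4.0-fold with adjusted p rounding to 0), and the cohesin gene SYN2 from 563 to 816 (1.45-fold with adjusted p = 0.023). All 20 means were above Col-0 in cle40-2, with a median of 1.19-fold. Of all genes, 51.1% of those above 0 and 48.7% of those with a mean of at least 50 were higher. All of the 20 but NAC085 had a mean of at least 50. Above that central band for their own level lay 4 of the 20, against 4.54% of all genes outside it on either side. In crn-3, 16 of 20 were above Col-0, with a median of 1.07-fold, against 46.9% of all genes above 0 and 50.5% at a mean of at least 50. In clv2-gabi 16 of 20 were, with a median of 1.09-fold, against 49.6% and 53.1%. Above the band lay 3 of 20 in crn-3 and 2 of 20 in clv2-gabi, against 4.7% and 4.68% of all genes outside it on either side. The 3 comparisons share the Col-0 libraries, and whether the mutants differ in these genes was not tested. In cle40-2 the kinase genes ATM and ATR stood at 1.1- and 1.11-fold in the authors' deposited table. In crn-3 and clv2-gabi 0 of 20 were called, and the nearest, NAC044 in crn-3, had means of 47 and 88 in the authors' deposited table (1.88-fold with adjusted p = 0.247). Green tissue and seed markers were called higher in the same cle40-2 libraries, as given above, and their part in these values was not tested.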
